A study of Mus musculus with 9 samples.

Results

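The Yip1 domain family of the mouse was examined in the RNA of whole testes. Its 7 genes, Yipf1 to Yipf7, were taken by symbol from a table of 22337 genes, and all 7 were listed. Yipf1 to Yipf6 were included because of the family name. The family was chosen by the RNA level of Yipf7, which was higher in KI-KI testes, so its differences between genotypes are given as a description and without a test. The testes came from 9 mice at 3 weeks of age, 3 of each Piwil4 genotype. The genotypes were wild-type (WT-WT), Piwil4 WT/R264W (WT-KI) and Piwil4 R264W/R264W (KI-KI), and no other allele or treatment was named. Piwil4 encodes a PIWI protein of male germ cells, and R264W replaces an arginine with a tryptophan. The knock-in was made by CRISPR-Cas9 in C57BL/6 zygotes, so the change is carried by every cell and is not restricted to germ cells.

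Yip1 domain proteins are small proteins that cross the membrane several times and reside in the endoplasmic reticulum (ER) and the Golgi apparatus. Together with Rab GTPases and the related Yif1 proteins they take part in vesicle traffic between these organelles and in keeping the Golgi in shape. Male germ cells put this machinery to a special use, because the acrosome of the round spermatid, the cap that later helps the sperm enter the egg, is built from Golgi-derived vesicles. In the mouse the first wave of germ cells goes through meiosis in the weeks after birth, so testes of this age differ in how many round spermatids they hold.

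Total estimated counts were between 17.96 and 24.28 M per library (median 20.17 M). All markers of Sertoli cells (11 of 11), Leydig cells (7 of 7), spermatogonia (12 of 12) and pachytene spermatocytes (16 of 16) had counts in all 9 libraries, as did 18 of 20 round spermatid genes. The progress of the first wave was expressed as a round spermatid score, which averages log2 CPM (counts scaled to library size with TMM) over those 20 genes. They include no Yip1 domain gene. It was 6.13, 3.1 and 1.96 in WT-WT replicates 1, 2 and 3, 5.26, 4.04 and 1.36 in WT-KI, and 3.01, 4.14 and 5.98 in KI-KI. The score was therefore spread over a wide range within each genotype, and the 3 genotypes overlapped. Summed CPM of 10 epididymal genes reached 94.7 in KI-KI replicate 1, against 7.04 to 30.9 in the other 8 testes. In whole tissue, fewer cells of a type and less RNA per cell cannot be told apart.

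The levels of the 7 genes per length, as FPKM (fragments scaled to transcript length and library size), set 6 members apart from Yipf7. Yipf4 had the highest median FPKM over the 9 testes (40.64, range 29.92 to 46.32). It was followed by Yipf5 (26.87, range 22.74 to 30.09), Yipf2 (17.91, range 16.37 to 19.34) and Yipf3 (14.98, range 13.59 to 16.77). Yipf1 (14.49, range 9.23 to 16.31) and Yipf6 (7.15, range 5.68 to 10.03) came next, and Yipf7 was last (0.35, range 0 to 1.4). Within single testes the order was nearly fixed. Yipf4 was above Yipf5, Yipf5 above Yipf2, Yipf2 above Yipf3, Yipf1 above Yipf6 and Yipf6 above Yipf7 in 9 of 9 testes. Yipf3 and Yipf1 could not be placed in order, since Yipf3 was higher in 5 of 9. Yipf7 made up between 0 and 1.26% of the summed FPKM of the family, and Yipf4 between 27.0 and 36.0%.

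**Figure D1:**
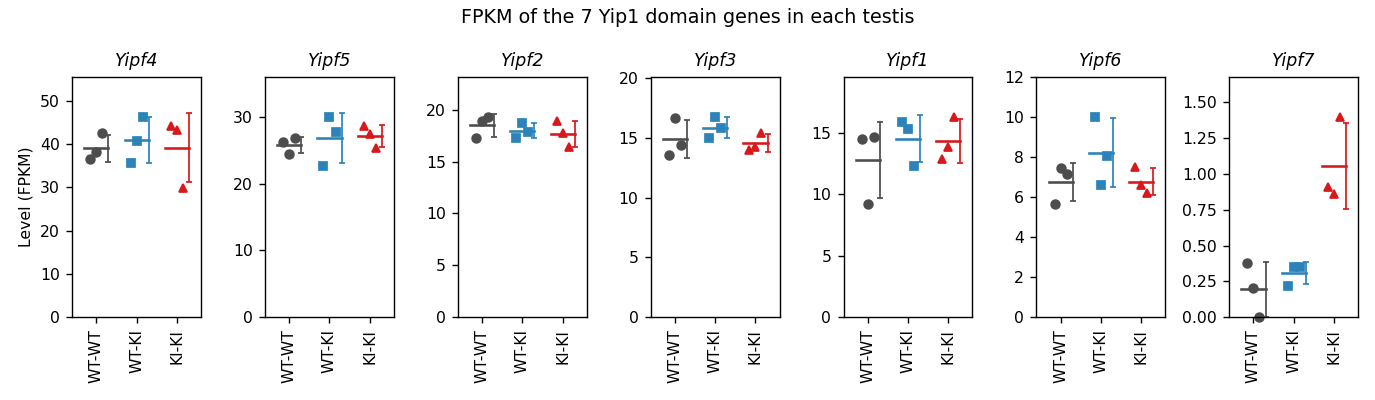
Level in FPKM (y axis, 1 panel per gene with its own scale from 0) of each Yip1 domain gene in each testis, by genotype (x axis). Points are testes, replicates 1 to 3 from left to right, horizontal lines are means of 3 testes, and error bars are SD. The genotypes overlap for Yipf1 to Yipf6, while for Yipf7 the KI-KI testes lie between 0.86 and 1.4 FPKM and the others between 0 and 0.38.

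Yipf7 encodes the member closest to the Yipf5 protein and is known mainly from skeletal and heart muscle. The gene (ENSMUSG00000029158) lies on chromosome 5, at 69516671 to 69542648 of GRCm38 on the minus strand. Its longest intron spans 13692 bp. Its estimated counts were 8, 5 and 0 in WT-WT replicates 1 to 3, 6, 6 and 8 in WT-KI, and 25, 21 and 28 in KI-KI. All 3 KI-KI testes were thus above all 6 others, and WT-WT and WT-KI overlapped. The exact Poisson 95% intervals, which cover counting error only, reached up to 40.5 counts over the KI-KI libraries and up to 15.8 over the others. The counts are not scaled to library size and are among the values that chose the gene. Gaps between intervals are therefore a description and not a test. The intervals of KI-KI replicates 1 (16.2 to 36.9) and 3 (18.6 to 40.5) met none of the others, and that of replicate 2 (upper bound 32.1) overlapped those of WT-WT replicate 1 (up to 15.8) and of all 3 WT-KI libraries (up to 13.1, 13.1 and 15.8). The count of 0 in WT-WT replicate 3 had an exact Poisson interval of up to 3.7 counts. A separate, fixed floor of 3 counts equals 0.145 CPM in that library.

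Scaled to library size, Yipf7 was at 1.19 ± 0.373 CPM in KI-KI, 0.342 ± 0.0759 in WT-KI and 0.205 ± 0.189 in WT-WT (SD, n = 3 each). The log2 fold change was 2.48 (SE 0.79) for KI-KI against WT-WT and 1.78 (SE 0.39) for KI-KI against WT-KI. In the same order, the SE was 0.91 and 0.65 by DESeq2, and 0.75 and 0.71 with all 9 libraries in 1 fit. The edgeR SE was derived from the fold change and its test statistic, so it is a description here. Both comparisons share the KI-KI libraries, and the values chose the gene. Leaving out 1 library at a time gave 1.92 to 3.22 for the first and 1.52 to 1.98 for the second, with the highest value, 3.22, when WT-WT replicate 1 was left out. For WT-KI against WT-WT the log2 fold change was 0.71 (SE 0.93). That value came from a fit without the filter on low counts, which Yipf7 did not pass in those 6 libraries. Of all 15771 genes tested over the 9 testes, 92 (0.583%) had every KI-KI testis above every other testis. Yipf7 was chosen as higher in KI-KI, so this share is a description and does not measure how unusual Yipf7 is. Because the counts of Yipf7 are small, the fold change depends on the scale. On log2(FPKM + 1) it was 0.79 against WT-WT and 0.65 against WT-KI.

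Over the progress of the first wave, with genotype in the fit, the slope of Yipf7 was 0.18 on the log2 scale per unit of round spermatid score (SE 0.16, edgeR adjusted p = 0.438), with a 95% interval of 0.89 to 1.44-fold per unit. Yipf7 passed the filter on low counts for this fit only through its KI-KI libraries. Leaving out 1 library gave slopes of 0.06 to 0.32, and the part of the first wave in the difference between genotypes was not tested.

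Because Yipf7 is a muscle gene elsewhere, markers of striated muscle were read in the same libraries. The summed CPM of 18 skeletal muscle genes was 39.8 to 46.7 in KI-KI, 33.6 to 44.7 in WT-KI and 37.2 to 46.0 in WT-WT. That of 13 cardiac and slow muscle genes was 38.5 to 52.4, 37.1 to 53.3 and 35.9 to 54.9. Both sums overlapped between genotypes, and both were carried in large part by abundant genes such as Actn3 (230 to 456 counts), Ttn (189 to 343) and Tnni3 (343 to 719). The mean log2 CPM, which gives each gene the same weight, set 2 KI-KI libraries apart. For the cardiac and slow list it was -1.1, 0.35 and 0.18 in KI-KI replicates 1, 2 and 3, against -0.98 to -0.7 in the 6 other testes. For the skeletal list it was -0.37 in KI-KI replicate 2 and -1.39 to -0.9 in all testes of WT-KI and WT-WT, with -1.27 and -1.26 in KI-KI replicates 1 and 3.

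In the muscle lists, some genes were higher in KI-KI replicates 2 and 3 than in the other testes, and others were not. Mb, which encodes myoglobin, had 1, 59 and 8 counts in KI-KI replicates 1 to 3, 0, 0 and 2 in WT-KI, and 0 in all WT-WT testes. Actc1, the cardiac actin gene, had 0, 27 and 18 counts in KI-KI and 0 or 1 in every other testis. The myosin light chain genes Myl3 and Myl2 had 0, 23 and 7 and 0, 16 and 4 counts in KI-KI, against 0 to 3 and 0 to 2 elsewhere. Tnnc1, a troponin gene, had 0, 3 and 5 counts in KI-KI and 0 or 1 elsewhere. Ckm, the muscle creatine kinase gene, had 9 counts in KI-KI replicate 2 and 0 to 2 elsewhere, and Acta1, the skeletal actin gene, had 0 to 4 in all testes. Other listed genes were low in KI-KI replicate 3. Mylpf had 13, 17 and 1 counts in KI-KI replicates 1 to 3, against 9 to 15 in WT-KI and WT-WT. Neb had 95, 100 and 53 against 51 to 131, and Ryr2 had 17, 18 and 9 against 13 to 32. Every KI-KI testis was above every other testis for 0 of 18 skeletal and 0 of 13 cardiac and slow muscle genes, where 0.583% of all genes tested had that pattern. At that share, lists of this length would most often hold no such gene, so the 0 is a description only. In the lists, 10 of 18 and 7 of 13 genes had counts in all 9 testes. In KI-KI replicate 1 Actc1, Myl2, Myl3 and Tnnc1 were at 0. The log2 fold change of Yipf7 was 2.68 against WT-WT and 1.98 against WT-KI without KI-KI replicate 2, and 2.22 and 1.52 without KI-KI replicate 3. The part of muscle RNA in the Yipf7 counts was not tested.

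**Figure D2:**
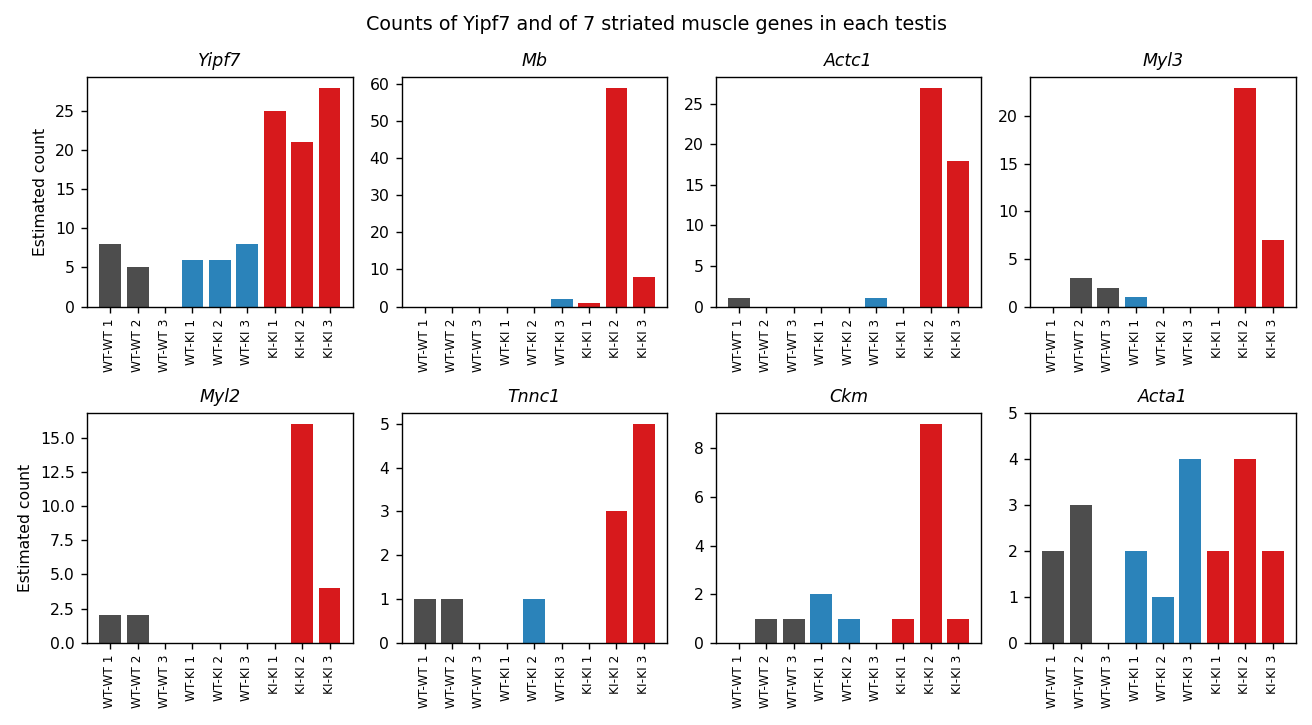
Estimated counts (y axis, 1 panel per gene with its own scale from 0) of Yipf7 and of the striated muscle genes Mb, Actc1, Myl3, Myl2, Tnnc1, Ckm and Acta1 in each of the 9 testes (x axis, colours are genotypes; no error bars, since each bar is 1 library). Yipf7 has 25, 21 and 28 counts in KI-KI replicates 1, 2 and 3. Mb, Actc1, Myl3, Myl2 and Tnnc1 are higher in KI-KI replicates 2 and 3 than in all other testes. The muscle genes shown are a part of lists of 18 and 13 genes, of which others, such as Mylpf and Ryr2, were not higher in both.

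The genes with profiles most like that of Yipf7 over the 9 testes were ranked by the root mean square difference of centred log2 CPM. They were Gm3264 (0.59), Gm10358 (0.73), Afm (0.74), Stk32a (0.77) and Fhit (0.82). The median over 15770 genes was 1.42, and the genes ranked first lie below it by construction. Afm, which encodes the vitamin E-binding protein afamin, had 84, 135 and 74 counts in KI-KI, 40, 34 and 28 in WT-KI, and 48, 33 and 16 in WT-WT, so that its KI-KI testes were also above all others. Gm3264 had 18, 15 and 12 counts in KI-KI and 1 to 9 elsewhere. The protein kinase gene Stk32a, the hydrolase gene Fhit and Gm10358 overlapped between KI-KI and WT-WT. Gm3264 and Gm10358 are predicted genes, and whether their counts include reads of related copies was not tested. Likeness here is a description over 9 testes, and low counts in WT-WT replicate 3 (0 to 3 for Gm3264, Gm10358, Stk32a and Fhit) were part of it. Since Yipf7 was chosen as higher in KI-KI, a match to its profile favours genes that are high in KI-KI. The 10 genes nearest to Yipf7 on chromosome 5, 5 on each side, held 4 that were tested. On the side of higher coordinates these were Guf1 at 14.3 kb, Gnpda2 at 30.5 kb and Cox7b2 at 1900.2 kb. On the other side it was Atp8a1 alone, at 1669.2 kb, so no gene near Yipf7 was tested there. None of the 4 passed an unadjusted p under 0.05 with a change of more than 2-fold by edgeR in KI-KI against WT-WT, KI-KI against WT-KI or WT-KI against WT-WT, where 0.18%, 0.446% and 0.234% of all genes tested passed, and the other 6 had at most 4 counts in any testis. Guf1, the nearest and singled out after its values were seen, had an unadjusted p of 0.0335 by edgeR for KI-KI against WT-KI. Its log2 fold change was -0.4 (372 to 541 counts in WT-KI and 295 to 443 in KI-KI, unscaled).

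Yipf5 is the closest relative of Yipf7 in the family and works at ER exit sites and the early Golgi, where it partners Yif1 proteins. The coding sequences of the pair were 68.5% identical, against 57.1 to 66.4% for the other pairs of members, but their transcripts shared no stretch longer than 17 nt. The Yipf5 level was 26.22, 24.55 and 26.87 FPKM in WT-WT, 22.74, 30.09 and 27.82 in WT-KI and 28.64, 27.52 and 25.32 in KI-KI. Genotypes overlapped, and Yipf7 FPKM was between 0 and 5.53% of Yipf5 FPKM in each testis. KI-KI against WT-WT gave a log2 fold change of 0.06 (SE 0.08, edgeR adjusted p = 1.0), with a 95% interval of 0.91 to 1.19-fold.

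Yipf3 and Yipf4 form a complex in the early Golgi, and both are known as receptors for the autophagy of Golgi membranes. Yipf4 was at 36.55, 38.09 and 42.51 FPKM in WT-WT, 35.64, 40.64 and 46.32 in WT-KI and 44.19, 43.25 and 29.92 in KI-KI. KI-KI replicate 3 held both the lowest Yipf4 level and the second highest round spermatid score. Yipf3 varied less, from 13.59 to 16.77 FPKM. The FPKM ratio of Yipf4 to Yipf3 therefore ran from 1.94 in KI-KI replicate 3 to 3.16 in KI-KI replicate 1. Log2 fold changes for KI-KI against WT-WT were -0.01 (SE 0.13) for Yipf4 and -0.03 (SE 0.12) for Yipf3, with 95% intervals of 0.79 to 1.25-fold and 0.80 to 1.19-fold.

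Yipf1, Yipf2 and Yipf6 act later in the Golgi, where the Yipf6 protein pairs with those of Yipf1 or Yipf2. Yipf1 was at 14.49, 9.23 and 14.7 FPKM in WT-WT, 15.87, 15.34 and 12.32 in WT-KI and 12.85, 13.84 and 16.31 in KI-KI. WT-WT replicate 2 stood lowest, with 250 counts against 300 to 470 in the other libraries. Yipf6, the member on the X chromosome, was at 5.68, 7.45 and 7.15 FPKM in WT-WT, 10.03, 6.63 and 8.05 in WT-KI and 7.52, 6.61 and 6.23 in KI-KI. Genotypes overlapped for both genes. FPKM and CPM ranked the testes differently for Yipf6, which was highest in WT-KI replicate 1 by FPKM (10.03) and in WT-KI replicate 3 by CPM (25.1, against 24.8). Yipf2 had the narrowest spread of the family, with a highest CPM 1.10 times the lowest, and only 0.412% of the 15771 genes tested had a smaller range. For Yipf3 the share of genes with a smaller range was 8.96%, for Yipf5 27.1%, for Yipf4 37.2%, for Yipf6 58.0% and for Yipf1 68.9%. On GRCm38 Yipf2 overlaps Carm1 and Timm29 on the opposite strand. Yipf1 overlaps the antisense gene Gm12869 and the processed pseudogene Gm12870, also on the opposite strand. Whether counting used strand is not given in the sources used here, so reads of overlapping genes cannot be told apart. Yipf2 was the only member whose estimated counts were not whole numbers, in 9 of 9 libraries.

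The comparison of genotypes asks whether the Piwil4 change alters RNA levels in the testis. For Yipf1 to Yipf6 it found no difference beyond the spread between testes. Groups overlapped for 6 of these 6 genes in all 3 comparisons, where 5.58% (KI-KI against WT-WT), 7.06% (KI-KI against WT-KI) and 5.36% (WT-KI against WT-WT) of all genes tested did not overlap. None of the 6 had an edgeR adjusted p under 0.05, with a background of 0.0% in each comparison, and none had an unadjusted p under 0.05 by edgeR, DESeq2 or limma on log2(FPKM + 0.1). Across all genes, 196 (1.26%), 343 (2.22%) and 171 (1.11%) had an unadjusted edgeR p under 0.05 in the 3 comparisons, and DESeq2 gave 1, 5 and 0 at an adjusted p under 0.05. The log2 fold changes of Yipf1 to Yipf6 lay between -0.11 (Yipf6) and 0.15 (Yipf1) for KI-KI against WT-WT, between -0.17 (Yipf6) and 0.05 (Yipf5) for KI-KI against WT-KI, and between -0.08 (Yipf2) and 0.13 (Yipf1) for WT-KI against WT-WT. The comparisons share libraries in pairs and are not independent of each other. The widest 95% interval was that of Yipf1 for KI-KI against WT-WT, 0.75 to 1.64-fold, and no interval of the 6 genes in the 3 comparisons reached a 2-fold change.

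**Figure D3:**
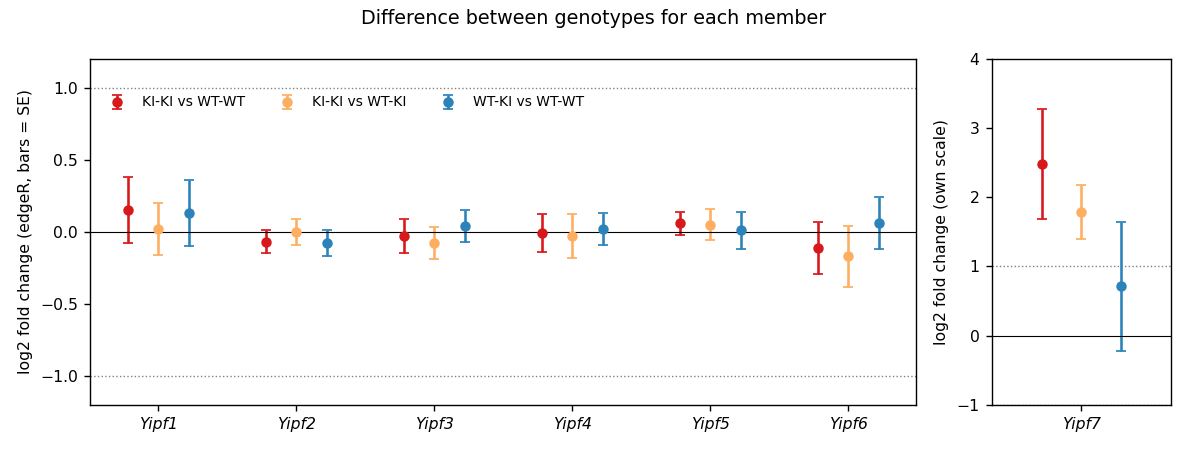
Log2 fold change (y axis, edgeR, error bars are SE) between genotypes for each Yip1 domain gene (x axis), with dotted lines at 2-fold; the right panel shows Yipf7 on its own scale, and its value for WT-KI against WT-WT is from the fit without a filter on low counts. Yipf1 to Yipf6 lie between -0.17 and 0.15, and Yipf7 is at 2.48, 1.78 and 0.71.

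The spread of scores allowed a second comparison, of levels with the progress of the first wave. Yipf1 had the highest point estimate and Yipf4 and Yipf6 the lowest among Yipf1 to Yipf6, but no member passed the threshold. The slope was taken over all 9 testes with genotype in the fit. At an edgeR adjusted p under 0.05, 26.6% of the 15771 genes tested changed with the score (17.8% higher, 8.81% lower) and 0 of 7 members did. Of these, Yipf7 was tested only because of its KI-KI counts. At an unadjusted p under 0.05 these were 39.4% of all genes and 2 of Yipf1 to Yipf6, and DESeq2 gave the same counts of 0 and 2 for Yipf1 to Yipf6.

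Those 2 genes were Yipf1 and Yipf4. In CPM, Yipf1 was at 20.9, 12.2 and 19.3 in WT-WT, 21.1, 20.6 and 15.8 in WT-KI and 16.8, 18.4 and 23.1 in KI-KI. The testes with scores above 5 (WT-WT replicate 1, WT-KI replicate 1 and KI-KI replicate 3) had the 3 highest CPM, and WT-WT replicate 3, with a score of 1.96, had 19.3. By FPKM, WT-WT replicate 1 (14.49) was below WT-KI replicate 2 (15.34) and WT-WT replicate 3 (14.7). The slope was 0.10 on the log2 scale per unit of score (SE 0.04, edgeR adjusted p = 0.079), which makes 0.49 over the range of scores. With 1 library left out, the slope was 0.09 to 0.16, and the adjusted p lay between 0.00764 (without WT-WT replicate 3, slope 0.16) and 0.291 (without WT-WT replicate 1). By limma on log2(FPKM + 0.1) the slope was 0.08 with an adjusted p of 0.228.

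Yipf4 was at 85.4, 82.1 and 90.5 CPM in WT-WT, 77.3, 88.9 and 96.8 in WT-KI and 94.8, 93.8 and 68.5 in KI-KI. Within WT-KI and KI-KI the testis with the highest score had the lowest CPM, which was not so in WT-WT. In FPKM it was so in WT-WT too, with 36.55 in replicate 1 against 38.09 and 42.51 in replicates 2 and 3. The slope was -0.06 per unit of score (SE 0.03, edgeR adjusted p = 0.0838), or -0.31 over the range. With 1 library left out, it ran from -0.11 without WT-WT replicate 1 (adjusted p = 0.0296) to -0.04 without KI-KI replicate 3 (adjusted p = 0.288). The adjusted p was 0.0409 by limma on log2(FPKM + 1), 0.0558 by limma on log2(FPKM + 0.1) and 0.11 by DESeq2. For Yipf6, at 15.2 to 25.1 CPM, the slope was -0.07 (SE 0.04, edgeR adjusted p = 0.185), and without WT-KI replicate 1, which had a score of 5.26 and 24.8 CPM, it was -0.12 (adjusted p = 0.0152), whereas without KI-KI replicate 3 it was -0.04 (adjusted p = 0.477). With a score of 16 pachytene spermatocyte genes in place of the round spermatid score, the edgeR adjusted p of Yipf6 was 0.0347, and by limma on log2(FPKM + 0.1) with the round spermatid score it was 0.53.

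Yipf2, Yipf3 and Yipf5 gave slopes of -0.01 (SE 0.02), 0.02 (SE 0.03) and -0.003 (SE 0.03), with edgeR adjusted p of 0.844, 0.54 and 0.95. Their 95% intervals were 0.96 to 1.03-fold, 0.98 to 1.06-fold and 0.96 to 1.04-fold per unit of score. Yipf1 was at 48.7 to 99.6% of the FPKM of Yipf2, lowest in WT-WT replicate 2 and highest in KI-KI replicate 3.

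**Figure D4:**
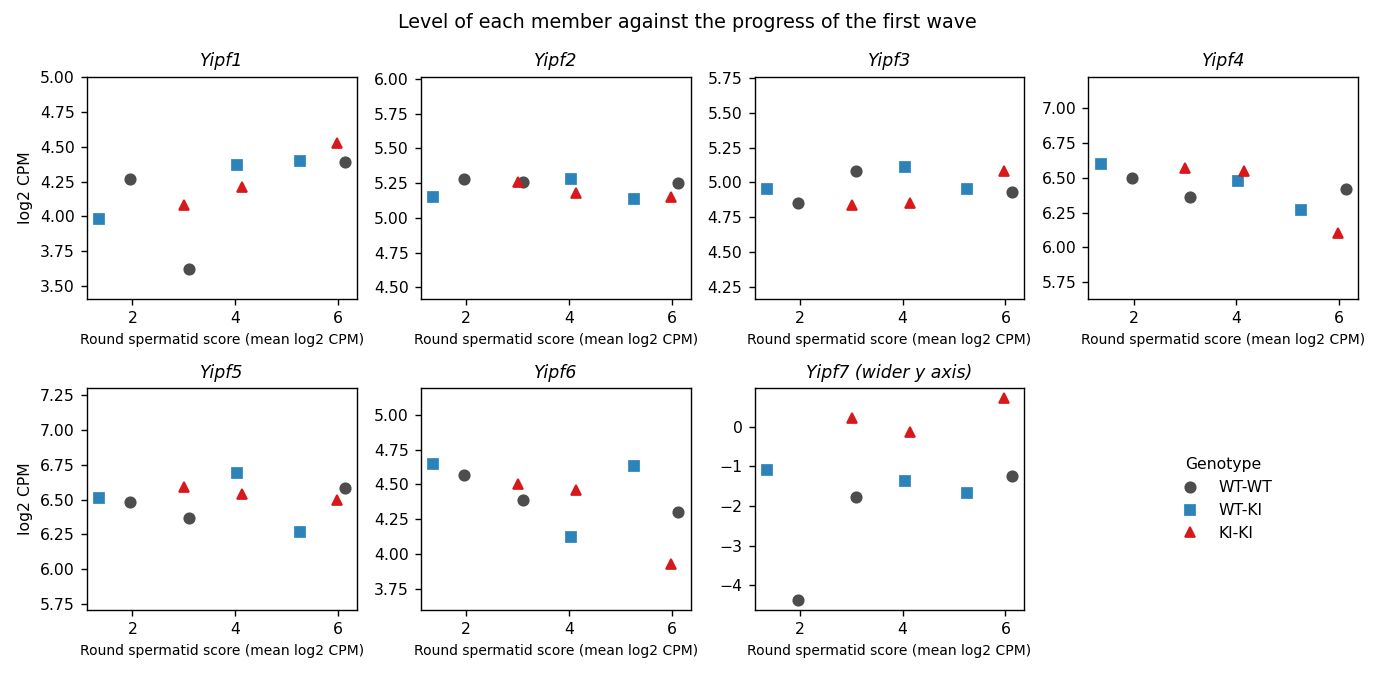
Log2 CPM of each Yip1 domain gene (y axis; the same span of 1.6 units for Yipf1 to Yipf6, a wider one for Yipf7) against the round spermatid score, an average of log2 CPM over 20 genes (x axis). Each point is 1 testis, coloured by genotype, and no error bars are drawn. Yipf2 is nearly level, Yipf1 is highest in the 3 testes with scores above 5 (in CPM but not in FPKM), and the KI-KI points of Yipf7 lie above all others, as the values that chose it do.

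The machinery around these proteins was read from 99 genes in 6 lists, 98 of which were tested. In the 3 genotype comparisons 0 of 98 had an adjusted p under 0.05 by edgeR or DESeq2, where the share over all genes was 0.0% by edgeR in each. An unadjusted edgeR p under 0.05 was found for 0, 1 and 0 of 98, against 1.26%, 2.22% and 1.11% of all genes. With the round spermatid score, 13 of 98 were higher and 10 lower at an edgeR adjusted p under 0.05 (23.5%), close to the 26.6% of all genes. The count depended on single libraries. It fell to 7 without WT-KI replicate 3, to 9 without KI-KI replicate 3, WT-WT replicate 1 or WT-WT replicate 3, and to 12 without KI-KI replicate 1, and it was 41 without WT-KI replicate 1. Over all genes the share moved likewise, from 13.5% without WT-WT replicate 1 to 39.3% without WT-KI replicate 1.

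Among 19 Rab GTPases and Yip1 partners, 1 was higher and 3 lower with the score. Over all genes tested, 17.8% were higher and 8.81% lower by the same rule. Yif1b, the Yif1 relative that pairs with Yip1 domain proteins, had a slope of 0.10 (adjusted p = 0.026) and an FPKM of 59.8 to 88.9, above every Yip1 domain gene. Rab18 fell with a slope of -0.10 (adjusted p = 0.00556), and Tvp23b, a Golgi protein gene, with -0.09 (adjusted p = 0.0224). Of 17 genes of the COPII coat, which carries cargo out of the ER, 4 were higher and 1 lower. The cargo adaptor gene Sec24b had the steepest slope of these, 0.20 (adjusted p = 1.32e-05), with 18.9 to 34.3 FPKM, and Sec16a was at 0.06 (adjusted p = 0.0458). Sar1b, the small GTPase that starts the coat, had -0.08 (adjusted p = 0.0291). These p-values are edgeR's.

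Of 12 genes of the COPI coat, which returns cargo to the ER, none passed by edgeR (4 at an unadjusted p under 0.05) and 1 did by DESeq2. By edgeR, 26.6% of all genes tested passed (17.8% higher, 8.81% lower), and 39.4% had an unadjusted p under 0.05. Among 19 SNARE and tether genes 2 were higher and 1 lower. The Golgi structural genes Golga5 (slope 0.08, adjusted p = 0.00719) and Gorasp2 (0.08, adjusted p = 0.00626) rose, and the tether gene Uso1 fell (-0.07, adjusted p = 0.0242). Of 21 p24 and cargo receptor genes 2 were higher, Tmed6 (0.25, adjusted p = 0.00498) and Ergic2 (0.06, adjusted p = 0.0262), and 4 were lower, among them Tmed5 (-0.12, adjusted p = 0.0229) and Lman1 (-0.09, adjusted p = 0.0149). Of 10 genes of acrosome formation 4 were higher and 1 lower. Zpbp and Spata16, which encode acrosomal proteins of the spermatid, had slopes of 0.11 and 0.09 (adjusted p = 0.00408 and 0.00757), and Vps54, needed for the return of vesicles to the Golgi, had -0.10 (adjusted p = 0.007). The score averages round spermatid genes, Acrv1 and Izumo1 among them, so a rise of other spermatid genes with it is partly built in. Only Rab18, Sec24b, Gorasp2 and Tmed6 of the 16 genes named kept an edgeR adjusted p under 0.05 in 9 of 9 fits that each left out 1 library.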

How the data were processed

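Whole testes of mice were sequenced as 9 samples. Per the labels, the authors filtered reads with fastp (version 0.18.0), used StringTie (version 1.3.1) and worked on mm39. The aligner, annotation release and counting tool are not given in the sources used here. The deposited table holds an FPKM value and an estimated count per gene and testis, and 89.2% of the estimated counts were whole numbers. Samples were grouped by the genotype label. The labels do not tell whether other features, such as litter, were shared, so p-values measure the spread between these 9 samples.

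Estimated counts were rounded. In R (version 4.3.3), edgeR (version 4.0.16; filterByExpr, TMM, quasi-likelihood test, two-sided, Benjamini-Hochberg over all genes tested) was run on 2 genotypes at a time, and on all 9 libraries with genotype and the round spermatid score (prior count 1). Intervals are 95%. Yipf7 passed the filter except in WT-KI against WT-WT. As alternatives, counts were fitted with DESeq2 (version 1.42.0), with size factors in place of TMM, with no filter or one of at least 10 counts in every library. FPKM values were fitted with limma (version 3.58.1) on a log2 scale with a pseudocount of 0.1 or 1, where the mean was 0.5 FPKM or more. Further alternatives were joint fits, the replicate number as a block, a pachytene score and leaving out each library. For a count of 0, a fixed floor of 3 counts is stated apart from the Poisson intervals, between 0.122 and 0.171 CPM. Scripts were tested on simulated data. Replicate numbers did not pair the samples.

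Named are all members; per list, the 2 genes with the steepest slope in each direction among those with an adjusted p under 0.05; the 5 genes most like Yipf7; and muscle markers. The members and lists were chosen with earlier results of these data known. Gene models are GENCODE's on GRCm38, joined by identifier (99.5% matched). Promoter sequences of some members were examined but are not reported here. Protein sequences and LINE-1 copies in introns were not analysed.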

Additional observations from a re-analysis of the deposited data

How the results depend on the processing

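Yipf7 had at most 28 counts in a library, and each genotype had n = 3. Genes past an unadjusted p under 0.05 and 2-fold numbered 28 (0.18%), 69 (0.446%) and 36 (0.234%) for KI-KI against WT-WT, KI-KI against WT-KI and WT-KI against WT-WT. They were 100, 159 and 121 without a filter, 9, 24 and 17 with at least 10 counts in every library, 16, 37 and 16 by limma on log2(FPKM + 0.1), and 1, 6 and 1 on log2(FPKM + 1). With the score as a covariate the first and last were 59 and 74. Fewer or more genes tested is part of the filters' construction; the cause was otherwise not tested. Leaving out 1 library gave 23 to 506 (506 without WT-WT replicate 1, 52 without KI-KI replicate 1, 44 without KI-KI replicate 3 or WT-WT replicate 3, 43 without WT-WT replicate 2), 59 to 145 (145 without WT-KI replicate 2, 110 without KI-KI replicate 1) and 40 to 67 (67 without WT-WT replicate 3), and 2156 to 6281 genes with a slope in place of 4190 (2590 without KI-KI replicate 3, 2156 without WT-WT replicate 1, 2486 without WT-WT replicate 3). DESeq2 gave 1 and 5 adjusted calls in the comparisons with KI-KI, and edgeR gave 0 in all 3 with any 1 library left out.

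Same-numbered replicates did not deviate together in every pair (correlations -0.731 to 0.781), so the numbers were not used to pair samples; with the replicate block the counts were 18, 56 and 38, and 3433 for the slope.

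The direction of Yipf7 in the comparisons with KI-KI is fixed by the values that chose it, and the filter of at least 10 counts removed it. Values near 0 changed sign for other members. For KI-KI against WT-WT, Yipf4 was 0.003 by DESeq2 and with its size factors, 0.001 with at least 10 counts and 0.026 with the score, and Yipf6 was 0.011 and 0.009 by limma. For KI-KI against WT-KI, Yipf1 was -0.016 and -0.015 by limma and -0.063 with the score, Yipf2 -0.027 and -0.026 by limma, and Yipf4 0.019 with the score. Slopes were 0.023 for Yipf2 and 0.263 for Yipf5 on the pachytene score, -0.01 and -0.009 for Yipf3 by limma, and 0.002 (DESeq2), 0.003 (size factors), 0.001 (at least 10 counts) and 0.0 (no genotype term) for Yipf5. With 1 library left out, the ranges that crossed 0 were, for KI-KI against WT-KI, -0.123 to 0.116 (Yipf1), -0.026 to 0.049 (Yipf2), -0.109 to 0.102 (Yipf4) and -0.049 to 0.153 (Yipf5). For KI-KI against WT-WT they were -0.039 to 0.303 (Yipf1), -0.12 to 0.046 (Yipf3), -0.081 to 0.127 (Yipf4) and -0.203 to 0.047 (Yipf6). For WT-KI against WT-WT they were -0.045 to 0.284 (Yipf1), -0.011 to 0.137 (Yipf3), -0.058 to 0.106 (Yipf4), -0.08 to 0.112 (Yipf5) and -0.034 to 0.223 (Yipf6), and for the slope -0.036 to 0.025 (Yipf5).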
